A study of Homo sapiens with 12 samples.

Results

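The antisense RNAs described here were the symbols ending in -AS1, -AS2 or -AS3 in the expression table of SK-UT-1 cells, a human line from a uterine leiomyosarcoma, which is a malignant smooth muscle tumour. A symbol was taken as a member where its normalised read count reached 10 in at least 3 of the 10 libraries, and 353 of the 710 antisense symbols did, of 22784 symbols in the table. Each was set beside its partner, the gene that gives the antisense RNA its name. Of the members, 337 end in -AS1, 13 in -AS2 and 3 in -AS3, and 357 antisense symbols stayed below the filter. The study sequenced total RNA with strand-specific libraries after treatment with inhibitors of BET proteins. The groups were DMSO vehicle (VEH, 3 libraries), JQ1 (4 libraries) and I-BET 762 (3 libraries), each inhibitor at 5 µM, all for 48 h. All groups came from the same line with no genetic change named in the labels, so they stand for 1 tumour, and 1 further library of VEH and 1 of I-BET 762 were not analysed here.

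An antisense RNA is read from the DNA strand opposite to another gene, most often as a spliced or unspliced transcript that codes for no protein. It may start from the same stretch of open chromatin as its partner and run the other way, in which case the pair stands head to head, or it may start inside or beyond the partner and overlap it. Some antisense RNAs are known to guide or block chromatin proteins, splicing or translation at their partner, while for most no function is known. BET proteins read acetylated histones at promoters and enhancers, and JQ1, a thienotriazolodiazepine, and I-BET 762, a benzotriazolodiazepine, both occupy the pocket that binds the acetylated lysine.

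Head-to-head pairs show how close an antisense RNA and its partner can start. In the Gencode annotation, 112 of the 353 members stood head to head with the partner, with annotated 5′ ends at most 1000 bases apart, 224 overlapped the partner from a more distant start, 2 lay near it on the other strand and 15 had no annotated pair. The stretches between the annotated starts of 6 pairs are shown because these pairs are described below. In PRKCQ, ZNF528, TM4SF1 and CCDC28A the antisense RNA and the partner were both called lower with JQ1. For TM4SF1-AS1 that call was lost in some fits that left out 1 library. In MNX1 and ZNF22 the antisense RNA alone was called lower, and CCDC28A-AS1 also differed between the inhibitors. Each stretch is given 5′ to 3′ on the partner's strand in hg38. The partner starts just past the last base, and the antisense RNA starts before the first base and runs the other way. Capitals mark a CCAAT box or the ETS motif CCGGAAG, which were searched for on both strands together with the TATA box TATAAA, the E-box CACGTG and the palindromic NRF1 motif. Matches of different motifs overlapped in 25 of all 27305 RefSeq promoters described next and in 0 of the 12 stretches between starts that were read.
PRKCQ-AS1 and PRKCQ, chr10:6580302-6580418, minus strand: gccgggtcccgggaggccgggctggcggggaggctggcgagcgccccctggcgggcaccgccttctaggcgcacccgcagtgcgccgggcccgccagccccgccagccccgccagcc
ZNF528-AS1 and ZNF528, chr19:52397792-52397848, plus strand: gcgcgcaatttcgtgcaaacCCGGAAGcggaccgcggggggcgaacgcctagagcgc
TM4SF1-AS1 and TM4SF1, chr3:149377693-149377777, minus strand: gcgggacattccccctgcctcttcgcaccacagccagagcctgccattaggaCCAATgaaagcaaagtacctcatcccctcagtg
MNX1-AS1 and MNX1, chr7:157010664-157010804, minus strand: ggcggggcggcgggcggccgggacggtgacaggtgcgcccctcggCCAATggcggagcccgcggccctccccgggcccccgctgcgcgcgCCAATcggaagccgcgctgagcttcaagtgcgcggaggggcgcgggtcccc
ZNF22-AS1 and ZNF22, chr10:45000889-45000922, plus strand: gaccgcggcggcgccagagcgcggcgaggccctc
CCDC28A-AS1 and CCDC28A, chr6:138773653-138773768, plus strand: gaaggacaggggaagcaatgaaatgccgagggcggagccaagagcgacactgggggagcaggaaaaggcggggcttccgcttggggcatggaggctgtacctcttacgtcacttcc

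These stretches were 34 to 141 bases long, and GC content ran from 57.6% in TM4SF1 to 85.3% in ZNF22. Over the 290 members with a promoter in the RefSeq table of the GRCh38.p14 assembly (250 bases before to 50 bases after the start), the median GC content was 64.5%, and it was 58.3% over all 27305 promoters of that length. The median number of CG dinucleotides was 24.5 in the members and 14.0 in all promoters. The TATA box was present in 6.55% of the members' promoters and in 12% of all, the CCAAT box in 31.7% and 35.7%, the ETS motif in 11.7% and 10.7%, the E-box in 8.62% and 7.43%, and the NRF1 motif in 2.76% and 1.36%. A match describes letters in a window and marks no site in use.

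Antisense RNAs were low in these cells. The mean over the 10 libraries had a median of 48.0 normalised counts among the members, against 809.1 for the 14839 symbols that passed the same filter, and 114 members had a mean of at least 100. The antisense RNAs together took 0.2407 to 0.2573% of the reads on genes in each library. This sum includes 8 rows, named below, that carry the values of another gene. The highest, ADAMTSL4-AS1 with the values of MCL1, held 13627 of the 91011 antisense reads in VEH 13. In JQ1 17 it held 26388 of 91847. The share without these rows was not taken, so its level and evenness do not describe the antisense RNAs alone. Per kilobase of annotated exon, the antisense RNA was below its partner in 270 of 306 pairs in VEH, with a median 9.16-fold lower level. The members were chosen by these same normalised counts. HDAC11-AS1, HIPK1-AS1 and PRMT5-AS1 were just inside the filter, with the lowest of their 3 highest libraries at 10.01, 10.82 and 10.92 normalised counts, and HDHD5-AS1, SOCS2-AS1 and DENND5B-AS1 just outside, at 9.1, 9.1 and 9.89. In 250 members all 10 libraries reached 10. Another 12 reached it in VEH libraries alone, FOXP4-AS1, HOXC-AS3, TNS1-AS1, LMCD1-AS1, RNF217-AS1 and SPINT1-AS1 among them, so a lower value with the inhibitors was built into their selection. The 6 that reached it in treated libraries alone were ATP2B1-AS1, CCDC13-AS2, HM13-AS1, NEPRO-AS1, POT1-AS1 and SLC28A2-AS1, and for these a higher value with the inhibitors was built in. DLGAP1-AS3, FOXN3-AS1, MNX1-AS1 and SEPTIN4-AS1 reached 10 in fewer than 3 treated libraries. They would not have passed without the VEH libraries, so their falls are descriptions too.

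Each library held 35564586 to 39658989 reads on genes, and 3 reads, the limit that a count of 0 allows, came to 2.73 to 3.296 normalised counts. All 8 smooth muscle markers fixed for the check were expressed, and their summed level was 22996.2 to 23653.3 normalised counts in VEH, 11337.6 to 12082.7 with JQ1 and 12902.9 to 13387.2 with I-BET 762. With each inhibitor 7 of the 8 fell, TAGLN from a mean of 1598.68 to 125.68 and 156.71 among them, and SMTN (2324.04 in VEH, 2644.4 and 2657.2) was not called. Of 5 epithelial markers 4 fell with JQ1 and 3 with I-BET 762, and their sum went from 1211.6 to 1271.2 in VEH to 511.2 to 602.3 and 496.9 to 544.4. Of 4 fibroblast markers COL1A1 alone was called (174.24 to 15.63 and 36.98), while DCN and LUM were at 4 reads or fewer, as were the blood and endothelial markers and the hormone receptors ESR1 and PGR in every library. MYH11 was not among the symbols of the table. The part of these shifts in the results below was not tested. In bulk RNA, fewer cells of a kind and less RNA per cell cannot be told apart. The gene of 8 members could not be separated from another gene, because both symbols carried the same values in all libraries: ADAMTSL4-AS1 carried those of MCL1, GRIK1-AS2 of BACH1, RASGRP3-AS1 of FAM98A, CYP17A1-AS1 of WBP1L, LHX4-AS1 of ACBD6, PCBP1-AS1 of ASPRV1, STT3A-AS1 of FEZ1 and DLEU7-AS1 of DLEU1. Of the 6 members with the highest mean, 3 were of this kind, and the values under ADAMTSL4-AS1 (mean 21233.9) are those of a row shared with MCL1, an inhibitor of apoptosis. Another 5 members, LMCD1-AS1 and POT1-AS1 among them, carried the same values as a symbol with no annotation entry of its own. The 8 rows are left out of every pair, list and split by level below, and the counts over the members are given with and without them. At 265 pairs the exons of antisense RNA and partner shared bases on opposite strands. The libraries keep the strand, but the strand setting of the read counting is not given in the sources used here; of 81 symbols wholly covered by exons of the other strand, 12 still had at least 10 normalised counts in 3 libraries, EVA1B the highest at 1098.88.

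With JQ1, 39 members rose and 110 fell, at an adjusted p under 0.05 in limma and a fold change over 1.5 (DEGs). The background is 36.1% of all 14839 symbols called, 13.3% higher and 22.8% lower, and the members' shares were 11% higher and 31.2% lower. With I-BET 762, 34 members rose and 82 fell, 9.63% and 23.2%, beside a background of 26.9% called, 8.96% higher and 17.9% lower. Falls were then counted by level. Among symbols with a mean under 100, 35.1% of the antisense RNAs and 38.9% of all symbols fell with JQ1, and 27.6% and 32.3% with I-BET 762. At a mean of at least 100, 22.6% of 106 antisense RNAs and 17.3% of 11072 symbols fell with JQ1, and 13.2% and 13.1% with I-BET 762. The differences in share were not tested. The median log2 fold change of the members was -0.23 with JQ1 and -0.11 with I-BET 762, and over all symbols 0.01 and -0.001. Without the 8 shared rows, 38 rose and 108 fell with JQ1, and 34 rose and 80 fell with I-BET 762. Among the 250 members at 10 counts in every library, 30 rose and 59 fell with JQ1, and 26 rose and 40 fell with I-BET 762. Their shares were 12% higher and 23.6% lower with JQ1, beside 13.3% and 22.8% of all symbols. For I-BET 762 they were 10.4% and 16%, beside 8.96% and 17.9%, and all symbols were not limited to 10 counts in every library. Without the shared rows the counts were 29 and 57, and 26 and 38, of 242. Both inhibitors were compared with the same 3 VEH libraries.

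**Figure D1:**
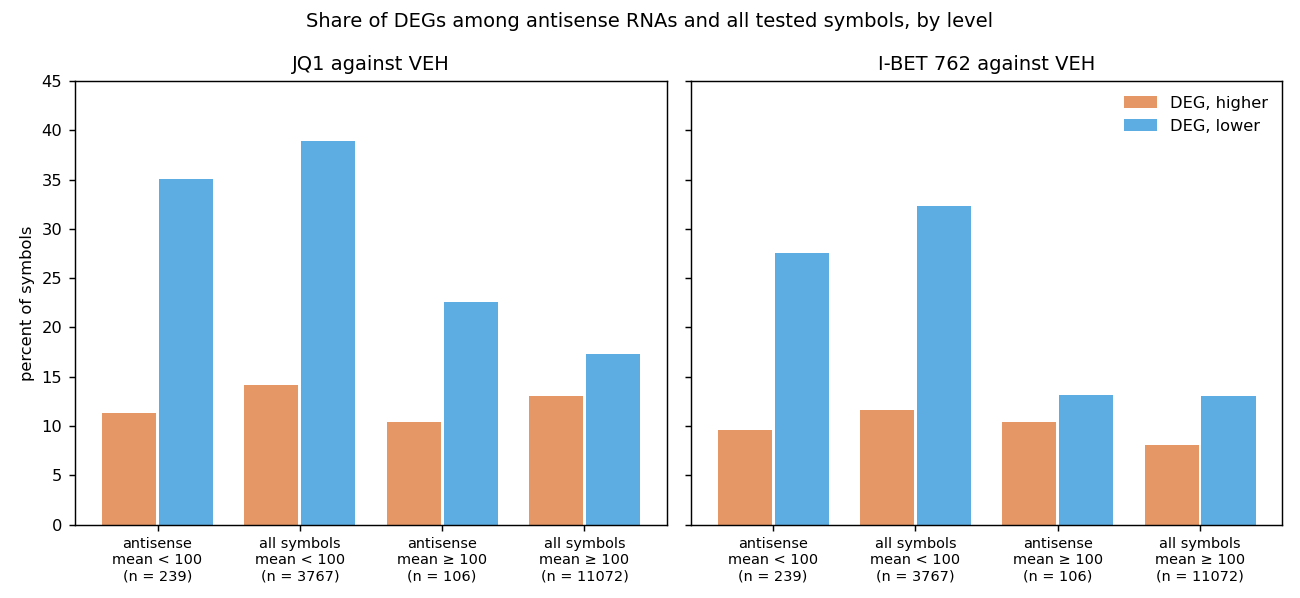
Percent of antisense RNAs and of all tested symbols called DEGs (y axis) with JQ1 (left) and I-BET 762 (right), split at a mean of 100 normalised counts; n under each pair of bars is the number of symbols, and the antisense RNAs are without the 8 shared rows. Below a mean of 100 the antisense RNAs had a lower share of falls than all symbols (35.1% against 38.9% with JQ1), and at or above it a higher one (22.6% against 17.3%).

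Other symbols for noncoding transcripts were counted in the same way. The background was 13.3% of all symbols higher and 22.8% lower with JQ1, and 8.96% and 17.9% with I-BET 762. Of 159 divergent transcripts (symbols ending in -DT), 27 rose and 40 fell with JQ1 (17% and 25.2%). There were 16 rises and 24 falls with I-BET 762 (10.1% and 15.1%). Of 25 symbols with the endings -IT1 to -IT3, -OT1 or -AS, 0 rose and 5 fell (20%) with JQ1. In the same 25, 3 rose and 4 fell with I-BET 762 (12% and 16%). Among the antisense RNAs, 28 of 112 head-to-head members (25%) and 79 of 222 overlapping ones (35.6%) fell with JQ1. Rises with JQ1 were 13 and 23 (11.6% and 10.4%). With I-BET 762, 21 head-to-head and 58 overlapping members fell (18.8% and 26.1%), and 9 and 24 rose (8.04% and 10.8%). The difference between the position classes was not tested.

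DLGAP1-AS3, SNAP25-AS1, TNS1-AS1, FOXP4-AS1, FOXN3-AS1, HOXC-AS3, LMCD1-AS1 and RNF217-AS1 were among the deepest falls. Of these, TNS1-AS1, FOXP4-AS1, HOXC-AS3, LMCD1-AS1 and RNF217-AS1 passed the filter through VEH libraries alone. Their values and intervals here and in the next paragraph are therefore a description, as a fall was built into their selection. DLGAP1-AS3 and FOXN3-AS1 passed only with the VEH libraries, so their falls and p-values are given with the same limit. DLGAP1-AS3, on chromosome 18 inside DLGAP1, a scaffold of the synapse, was at 108.5, 111.9 and 103.7 normalised counts in VEH. It was at 5.49, 4.35, 3.0 and 6.09 with JQ1 and at 3.94, 7.02 and 12.8 with I-BET 762. The VEH libraries lay far above all treated ones, and the log2 fold changes were -4.28 ± 0.35 (SE, adjusted p = 1.83e-08, limma) and -3.74 ± 0.37 (adjusted p = 3.88e-07). DLGAP1 itself fell by 2.84 and 2.10 on the log2 scale, and no annotated exon bases are shared between them. SNAP25-AS1, opposite the gene of a SNARE protein of vesicle release, was at 73.04 to 86.2 in VEH, 5.0 to 13.06 with JQ1 and 12.79 to 14.04 with I-BET 762, with log2 fold changes of -3.28 ± 0.30 (adjusted p = 6.73e-08) and -2.49 ± 0.32 (adjusted p = 5.81e-06). SNAP25 fell too, by 2.12 and 1.32 on the log2 scale. TNS1-AS1, opposite tensin 1 of focal adhesions, had 53 reads over the VEH libraries, 4 over the JQ1 libraries and 8 over the I-BET 762 libraries. Its level in VEH was 15.7 times that with JQ1 (95% interval 5.8 to 59.9) and 6.25 times that with I-BET 762 (2.95 to 15.2), intervals that cover counting error only. TNS1 fell by 2.75 and 1.5 on the log2 scale.

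FOXP4-AS1 was at 39.71, 39.75 and 42.77 in VEH, at 1.0 to 3.26 with JQ1 and at 1.97 to 5.01 with I-BET 762. Its reads gave a level in VEH 22.2 times that with JQ1 (10.5 to 56.4) and 11.2 times that with I-BET 762 (6.07 to 23). FOXP4, the forkhead gene across the strand, moved the other way without reaching the fold threshold (log2 fold change 0.50, adjusted p = 0.000614 with JQ1). FOXN3-AS1 was at 33.9, 38.83 and 35.49 in VEH, 1.10 to 6.53 with JQ1 and 9.02 to 11.81 with I-BET 762, with no overlap between the 3 groups. HOXC-AS3, from the HOXC cluster, was at 15.5, 16.64 and 18.2 in VEH, at 0 in 3 JQ1 libraries and 2.0 in the other, and at 1.0 to 2.95 with I-BET 762; 2 reads in JQ1 against 54 in VEH gave a ratio of 32.1 with an interval of 8.45 to 271. HOXC10, whose annotated start lies 454 bases from that of HOXC-AS3, fell by 3.35 with JQ1 and 2.80 with I-BET 762 on the log2 scale. LMCD1-AS1 and RNF217-AS1 had 53 and 52 reads in VEH and 6 and 7 with I-BET 762, and their levels in VEH were 8.33 (3.58 to 23.7) and 7 times (3.17 to 18.3) those with I-BET 762.

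Several antisense RNAs at higher levels fell in every treated library. PAX8-AS1, opposite the gene of a transcription factor of the female genital tract, thyroid and kidney, was at 245, 247.8 and 234.8 in VEH, 43.95 to 62.88 with JQ1 and 55.14 to 66.94 with I-BET 762 (log2 fold changes -2.16 ± 0.15 and -2.01 ± 0.16). C1RL-AS1, named for a complement-like serine protease, was at 201.4, 168.3 and 212 in VEH, 21.3 to 41.34 with JQ1 and 40.34 to 61.16 with I-BET 762. HHIP-AS1, opposite the gene of a hedgehog-binding inhibitor, was at 249.9, 280.1 and 227.5 in VEH, 56.02 to 70.32 with JQ1 and 86.63 to 121.3 with I-BET 762, and it differed between the inhibitors as well. NR2F1-AS1, opposite the nuclear receptor gene NR2F1 and one of the 16 members with a mean of at least 1000, was at 2847.4, 2462.9 and 2645.5 in VEH, 1229.3 to 1382.3 with JQ1 and 1892.2 to 2265.1 with I-BET 762. Its log2 fold change was -1.03 ± 0.07 with JQ1 (adjusted p = 2.4e-09) and -0.40 ± 0.08 with I-BET 762 (adjusted p = 0.000308), the latter under the fold threshold. PAX8-AS1, C1RL-AS1, HHIP-AS1 and NR2F1-AS1 were named after their values were seen.

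**Figure D2:**
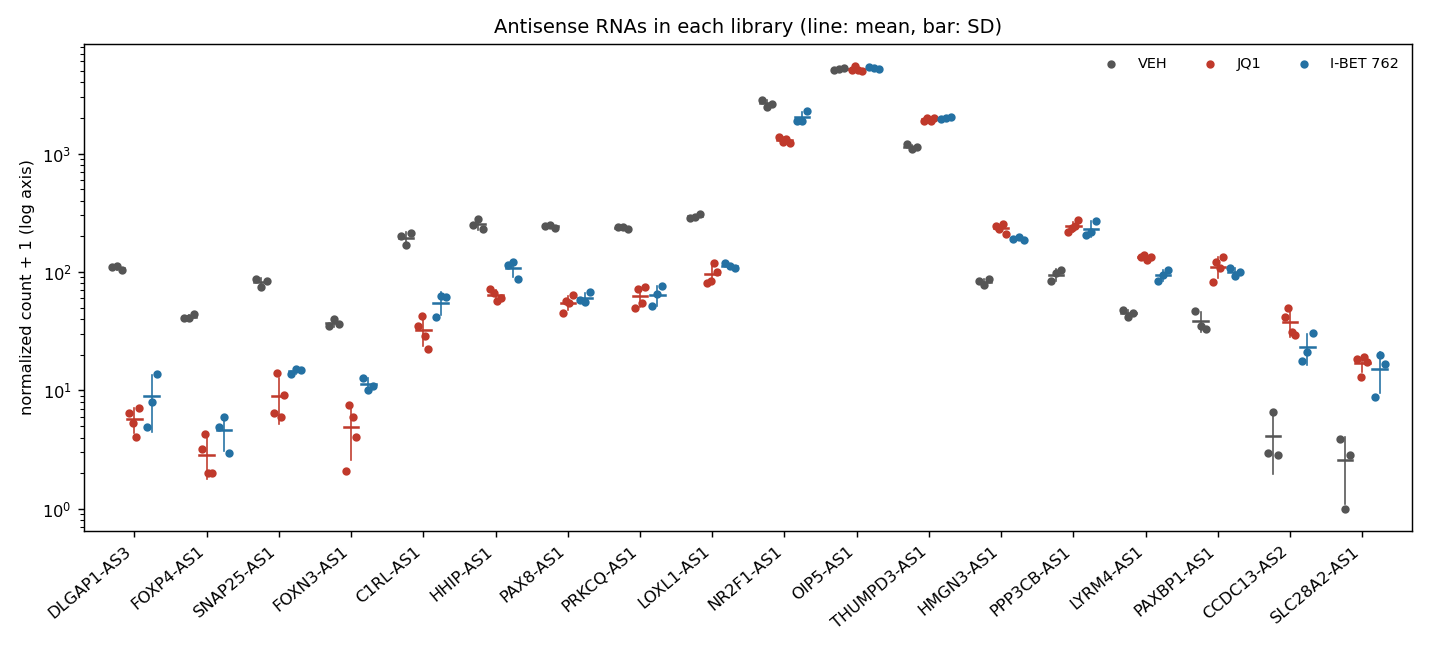
Normalised count plus 1 on a log axis for 18 antisense RNAs in each of the 10 libraries (grey VEH, red JQ1, blue I-BET 762), with the mean and SD of each group. From DLGAP1-AS3 to NR2F1-AS1 every treated library lies below the VEH libraries, OIP5-AS1 shows no shift, and from THUMPD3-AS1 to SLC28A2-AS1 every treated library lies above.

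Rises were fewer than falls with both inhibitors. Of the antisense RNAs with the largest rises, CCDC13-AS2, SLC28A2-AS1, HM13-AS1 and POT1-AS1 passed the filter through treated libraries alone, so their values are a description. CCDC13-AS2 was at 1.94, 5.55 and 1.82 in VEH, 28.4 to 48.96 with JQ1 and 16.73 to 29.53 with I-BET 762, or 10, 140 and 67 reads in all. Its level was 11.8 times higher with JQ1 (6.22 to 25.1) and 7.11 times higher with I-BET 762 (3.63 to 15.5), and 1 of its 13 exon stretches of 75 bases has a copy elsewhere in the genome. SLC28A2-AS1, opposite a nucleoside transporter gene, had 5 reads in VEH, 61 with JQ1 and 43 with I-BET 762, and was 10.3 (4.17 to 32.8) and 9.12 times (3.62 to 29.5) higher. SLC28A2 had no read in 9 of the 10 libraries. HM13-AS1, opposite the signal peptide peptidase gene HM13, had 5 reads in VEH and 37 with I-BET 762, a 7.85-fold difference (3.08 to 25.6). POT1-AS1, head to head with the gene of a telomere-protecting protein, was at 5.81 to 7.40 in VEH, 18.26 to 32.64 with JQ1 and 11.81 to 23.06 with I-BET 762, while POT1 stayed between 996.6 and 1420.9 in all libraries. SLC12A9-AS1 rose in the same way (4.84 to 11.83 in VEH, 21.98 to 32.46 with JQ1, 16.73 to 33.08 with I-BET 762). ZNF295-AS1, which has no partner of that name in the table, was at 8.19 to 21.26 in VEH and 23.94 to 70.32 with JQ1, a wide spread, with a log2 fold change of 1.61 ± 0.37 (adjusted p = 0.000945).

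Other antisense RNAs rose from a higher level. LYRM4-AS1 was at 46.49, 40.68 and 43.68 in VEH, at 124.1 to 138.2 with JQ1 and at 82.65 to 102.4 with I-BET 762 (log2 fold changes 1.58 ± 0.13 and 1.07 ± 0.14). PAXBP1-AS1 was at 31.85 to 45.52 in VEH, 81.31 to 131.9 with JQ1 and 92.24 to 107.3 with I-BET 762. PPP3CB-AS1, head to head with the gene of a catalytic subunit of calcineurin, was at 82.32, 96.15 and 102.8 in VEH, 215.4 to 271.8 with JQ1 and 205.7 to 270.7 with I-BET 762 (1.36 ± 0.13 and 1.29 ± 0.13). THUMPD3-AS1, at over 1000 counts in every library, went from 1100.2 to 1192.2 in VEH to 1880.8 to 2010.2 with JQ1 and 1968.0 to 2029.9 with I-BET 762, with adjusted p = 1.42e-09 and 4.59e-09. It was chosen after its values were seen.

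Of 32 antisense RNAs fixed as well studied, 14 were members, and 7 fell, 0 rose and 7 were not called with JQ1. That is 50% lower, beside 22.8% of all symbols and 31.2% of the members, and with I-BET 762 it was 3 of 14, 21.4%, beside 17.9% and 23.2%. OIP5-AS1 and FGD5-AS1, the most abundant members that shared values with no other gene, were both not called. OIP5-AS1 was at 5048.8 to 5270.9 in VEH and 4971.8 to 5476.0 with JQ1 (log2 fold change -0.01, 95% interval -0.10 to 0.09). This depends on the scaling. With equal totals its log2 fold change with JQ1 was -0.191 (adjusted p = 0.000162, limma), still under the fold threshold. FGD5-AS1 went from 5925.3 to 6191.4 in VEH to 4497.0 to 4646.9 with JQ1, a log2 fold change of -0.40 (adjusted p = 2.44e-07) under the fold threshold. LOXL1-AS1, opposite the gene of the elastin crosslinking enzyme LOXL1, was at 286.7, 290.3 and 304.9 in VEH, 80.21 to 117.1 with JQ1 and 107.3 to 117.1 with I-BET 762. PRKCQ-AS1, across the 117 bases shown above from the gene of protein kinase C theta, was at 240.2, 237.6 and 231.1 in VEH, 48.35 to 74.04 with JQ1 and 50.18 to 74.82 with I-BET 762. With HOXC-AS3 these were the 3 that I-BET 762 lowered past both thresholds. HOXC-AS3 passed the filter through VEH libraries alone, so its fall was built into its selection. It stays in the shares of 50% and 21.4% above. CDKN2B-AS1, which runs through the locus of the p15 and p16 cell cycle inhibitors, was at 855.2, 614.8 and 737.1 in VEH, 374.7 to 450.2 with JQ1 and 475.2 to 574.9 with I-BET 762; it fell by 0.81 with JQ1 (adjusted p = 3.94e-06), and CDKN2B was at 633.2 to 894.4 with JQ1 and 812.6 to 849.1 in VEH. TMPO-AS1 and MCM3AP-AS1 fell by 0.76 and 0.63 with JQ1. With CDKN2B-AS1 they were the 3 of 5 members with cell cycle stems that JQ1 lowered (60%, beside 22.8% of all symbols). None of the 5 was a DEG with I-BET 762, where 4 had an adjusted p under 0.05 (limma). These 4 were not all lower, as 3 of the 5 log2 fold changes were below 0 and 2 above it. TRIM52-AS1, whose start is 19 bases from that of TRIM52, was at 211.1 to 230.5 in VEH, 91.2 to 124 with JQ1 and 156.5 to 172.4 with I-BET 762.

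The remaining well studied antisense RNAs had no call. FOXD2-AS1 was at 77.66 to 112.3 in VEH, 58.24 to 76.16 with JQ1 and 62.97 to 87.61 with I-BET 762 (log2 fold change -0.36, adjusted p = 0.0766 with JQ1). ZEB1-AS1, opposite a factor of epithelial-mesenchymal transition, was at 257.9 to 298.3 in VEH and 201.8 to 218.1 with JQ1, a difference of -0.40 under the fold threshold. HOXB-AS1 was at 88.75 to 114.3 in VEH and 62.88 to 80.21 with JQ1, and the adjusted p of 0.0132 became 0.0761 without VEH 13. HOXB-AS3 was at 11.09 to 15.47 and 4.35 to 17.58, and WWTR1-AS1, opposite the gene of the TAZ coactivator, at 22.19 to 33.67 and 23.94 to 41.76, so the groups overlapped in both.

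Among the 14 members with stems of developmental transcription factor families, 7 fell and 1 rose with JQ1, and 6 fell and 1 rose with I-BET 762. The falls were 50% and 42.9%, beside 22.8% and 17.9% of all symbols, and 38.9% and 32.3% of all symbols with a mean under 100. FOXN3-AS1, FOXP4-AS1, HOXC-AS3 and ZFHX4-AS1 had such a mean, and the differences in share were not tested. The 7 with JQ1 were FOXN3-AS1, FOXP4-AS1, HOXC-AS3, NR2F1-AS1, PAX8-AS1, PITX1-AS1 and ZFHX4-AS1, and all but NR2F1-AS1 fell with I-BET 762. FOXP4-AS1 and HOXC-AS3 passed the filter through VEH alone, and FOXN3-AS1 would not have passed without VEH. The 1 that rose, PAXBP1-AS1, came in by its first letters; PAXBP1 codes for a protein that binds PAX factors. Of 23 with ZNF or ZFP stems, 3 rose and 7 fell with JQ1 and 2 rose and 4 fell with I-BET 762. These falls, 30.4% and 17.4%, were close to the members' own 31.2% with JQ1 and below their 23.2% with I-BET 762.

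The partners were then set beside the antisense RNAs in the 310 pairs with both tested. With JQ1, both fell in 41 pairs, both rose in 8 and they moved in opposite directions in 10. With I-BET 762 the counts were 28, 4 and 8. Members whose fall or rise was built into their selection stay in these counts and in the shares below. TNS1-AS1, LMCD1-AS1, RNF217-AS1 and SPINT1-AS1 are among the 41 with JQ1. No count was taken without such members. The partner fell in 44.1% of the 93 pairs whose antisense RNA fell with JQ1 and in 19.7% of the 183 pairs whose antisense RNA was not called, and with I-BET 762 in 40.6% of 69 and 18.5% of 211. Across pairs, Pearson's r between the log2 fold changes was 0.38 with JQ1 and 0.30 with I-BET 762, and Spearman's rho 0.34 and 0.29; the 310 pairs share the same libraries and many of them share exon bases, so these describe the pairs only. Where no annotated exon bases are shared, 15 of 68 pairs fell together and 1 rose together with JQ1, and 7 and 0 with I-BET 762. In these 68, the partner fell in 45.5% of 33 pairs whose antisense RNA fell with JQ1 and 14.8% of 27 not called. The shares with I-BET 762 were 28% of 25 and 20.5% of 39, and Spearman's rho was 0.29 with JQ1 and 0.16 with I-BET 762. Where both means were at least 100, 5 of 87 pairs fell together and 3 rose together with JQ1, and 4 and 1 with I-BET 762. In these 87, the partner fell in 27.8% of 18 pairs whose antisense RNA fell with JQ1 and 20.7% of 58 not called. The shares with I-BET 762 were 36.4% of 11 and 16.7% of 66. Spearman's rho was 0.16 with JQ1 and 0.08 with I-BET 762, lower than over all pairs. None of these differences was tested.

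**Figure D3:**
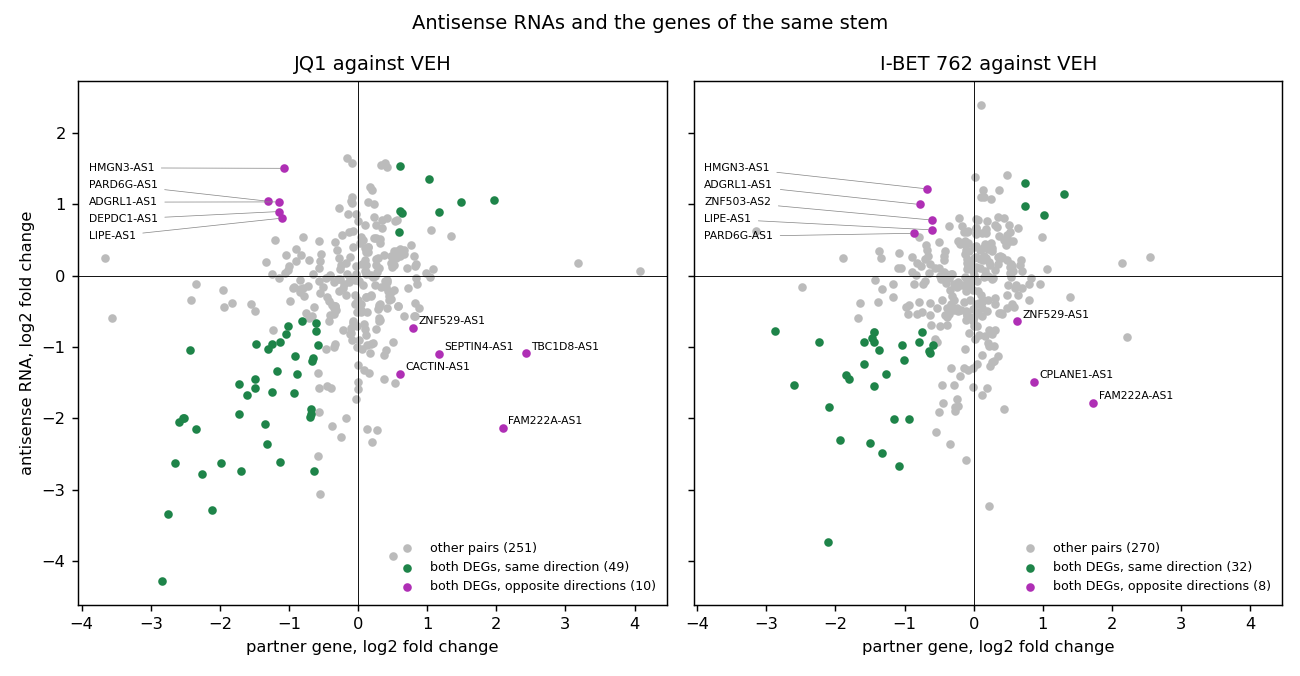
Log2 fold change of each antisense RNA (y axis) against that of its partner (x axis) for 310 pairs, with JQ1 on the left and I-BET 762 on the right; colours mark pairs in which both were DEGs, and the opposite pairs are named. With JQ1 the 49 pairs that moved the same way lie mostly at the lower left, and 10 pairs lie in the other corners.

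Several of the pairs that fell together are described here. Those of HHIP, PAX8, C1RL, SPINT1, ZNF528 and TM4SF1 were chosen after their values were seen. HHIP was at 911.9 to 1016.9 in VEH, 137.1 to 205.1 with JQ1 and 289.7 to 335.5 with I-BET 762, and with HHIP-AS1 it fell by 2.54 and 1.58 on the log2 scale. PAX8 was at 55.51 to 70.26 in VEH, 10.14 to 13.19 with JQ1 and 20.66 to 36.09 with I-BET 762. C1RL fell by 2.66 and 2.09, and LOXL1 by 1.25 and 1.27. SPINT1, an inhibitor of serine proteases at the surface of epithelia, fell by 1.98 and 1.81, while SPINT1-AS1 had 57 reads in VEH, 10 with JQ1 and 19 with I-BET 762; its call with I-BET 762 (adjusted p = 0.0487) was lost without any 1 of 6 libraries, VEH 13, VEH 14, VEH 15, I-BET 762 21, I-BET 762 22 or JQ1 20, at an adjusted p of up to 0.144. SPINT1-AS1 also passed the filter through VEH libraries alone, so its values are a description. PRKCQ fell less than PRKCQ-AS1, by 0.68 against 1.94 with JQ1. ZNF528-AS1 went from 29.58 to 40.04 in VEH to 4.0 to 12.09 with JQ1, and ZNF528 from 236.6 to 250.8 to 122.9 to 180.5. TM4SF1, a membrane protein gene at 18504.3 to 20455.5 in VEH, fell by 1.25 with JQ1 and 1.43 with I-BET 762, but TM4SF1-AS1 was at 15.5, 51.77 and 22.75 in VEH, and its fall with JQ1 (adjusted p = 0.0467) was lost in 7 of the fits that left out 1 library, with an adjusted p of 0.309 without VEH 14.

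Pairs that rose together were fewer. With JQ1 they were DMTF1, INTS6, LIFR, PAXBP1, PPP3CB, SH3BP5, SPRY4 and ZBTB11 with their -AS1 RNAs, and with I-BET 762 CIRBP, LIFR, PPP3CB and RGMB. PPP3CB was at 1801.4 to 1893.8 in VEH, 3561.3 to 4075.7 with JQ1 and 3041.5 to 3120.0 with I-BET 762. LIFR, the receptor gene of leukaemia inhibitory factor, was at 901.7 to 946.7, 2472.7 to 2773.4 and 2234.6 to 2353.0. LIFR-AS1 was at 22.28, 7.40 and 15.47 in VEH, 23.08 to 33.73 with JQ1 and 25.06 to 36.42 with I-BET 762, and its adjusted p with JQ1 went from 0.00765 to 0.0594 without VEH 14. SPRY4, an inhibitor of receptor tyrosine kinase signalling, was at 566 to 632.4 in VEH, 2054.2 to 2606.6 with JQ1 and 1112.8 to 1249.2 with I-BET 762.

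In some pairs the antisense RNA was called and the partner was not, or the reverse. ZNF22-AS1, across the 34 bases shown above from ZNF22, was at 55.2, 75.81 and 68.25 in VEH, 9.13 to 21.76 with JQ1 and 20.05 to 22.63 with I-BET 762, and fell by 2.16 and 1.58 on the log2 scale (adjusted p = 6.06e-06 and 0.0004). ZNF22 was at 1979.6 to 2410.2, 2366.2 to 3105.2 and 2359.6 to 2674.5, and its log2 fold changes of 0.27 and 0.20 were under the fold threshold. MNX1-AS1, head to head with the homeobox gene MNX1, was at 26.39 to 42.61, 4.0 to 9.13 and 7.02 to 15.75 and fell by 2.15 and 1.54; MNX1 was at 34.87 to 51.77, 34.48 to 72.52 and 28.55 to 51.13, and the groups overlapped. EIF1B-AS1, whose start lies 9 bases from that of the translation factor gene EIF1B, was at 37.9 to 60.06 in VEH, 11.16 to 27.01 with JQ1 and 16.73 to 22.64 with I-BET 762, and EIF1B was between 682.8 and 903.2 in all libraries. In ACTA2 the partner alone was called. ACTA2-AS1 was at 93.37 to 126.9 in VEH and 138.1 to 165.9 with JQ1 (log2 fold change 0.50, adjusted p = 0.00261, under the fold threshold), while ACTA2, smooth muscle actin, fell by 1.21; 51.5% of the exon bases of ACTA2-AS1 are covered by exons of the other strand. These pairs were chosen after their values were seen. MNX1-AS1 passed the filter only with the VEH libraries, so its fall is a description.

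Opposite moves of antisense RNA and partner were seen in 10 pairs with JQ1 and 8 with I-BET 762. FAM222A-AS1 was at 40.68, 38.83 and 32.76 in VEH, 3.04 to 12.09 with JQ1 and 7.88 to 11.81 with I-BET 762, while FAM222A was at 140.1 to 174.3, 548.4 to 755.3 and 501.8 to 536.5. The antisense RNA fell by 2.14 and the partner rose by 2.09 with JQ1, and by 1.79 and 1.73 with I-BET 762, with no shared exon bases and no overlap of treated and VEH libraries in either. TBC1D8, with the domain of Rab GTPase-activating proteins, rose by 2.43 with JQ1 (374.4 to 401 in VEH, 1992.2 to 2133.0 with JQ1), and TBC1D8-AS1 was at 15.47 to 29.58 in VEH and 5.49 to 15.01 with JQ1. The latter difference had an adjusted p of 0.0131, which was 0.05 without VEH 13 and 0.0675 without VEH 14. HMGN3-AS1 went the other way: it was at 82.32, 76.73 and 85.54 in VEH, 209.9 to 252.1 with JQ1 and 187 to 196.5 with I-BET 762, and HMGN3, a nucleosome-binding protein gene, was at 2078.4 to 2364.3, 1026.4 to 1184.9 and 1284.7 to 1503.5. PARD6G-AS1 rose from 333.1 to 348.5 in VEH to 665.9 to 727.3 with JQ1 and 496.1 to 539.2 with I-BET 762. PARD6G, of the cell polarity complex, fell from 359.3 to 424.1 to 124 to 184.6 and 200.7 to 225.6. ADGRL1-AS1 rose by 1.03 and 1.0 and ADGRL1, an adhesion receptor gene, fell by 1.15 and 0.78. ZNF529-AS1 fell by 0.73 and 0.64 and ZNF529 rose by 0.79 and 0.63, but 46.7% of the exon bases of ZNF529-AS1 are covered by exons of the other strand. CPLANE1-AS1 fell with I-BET 762 (19.41 to 26.15 in VEH, 3.94 to 13.03) while CPLANE1, needed for cilia, rose by 0.87. SEPTIN4-AS1 was at 6.78, 20.34 and 14.56 in VEH and 3.04 to 8.0 with JQ1, and its adjusted p of 0.0313 was 0.0593, 0.0824, 0.168 and 0.0936 without JQ1 18, JQ1 20, VEH 14 and VEH 15.

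**Figure D4:**
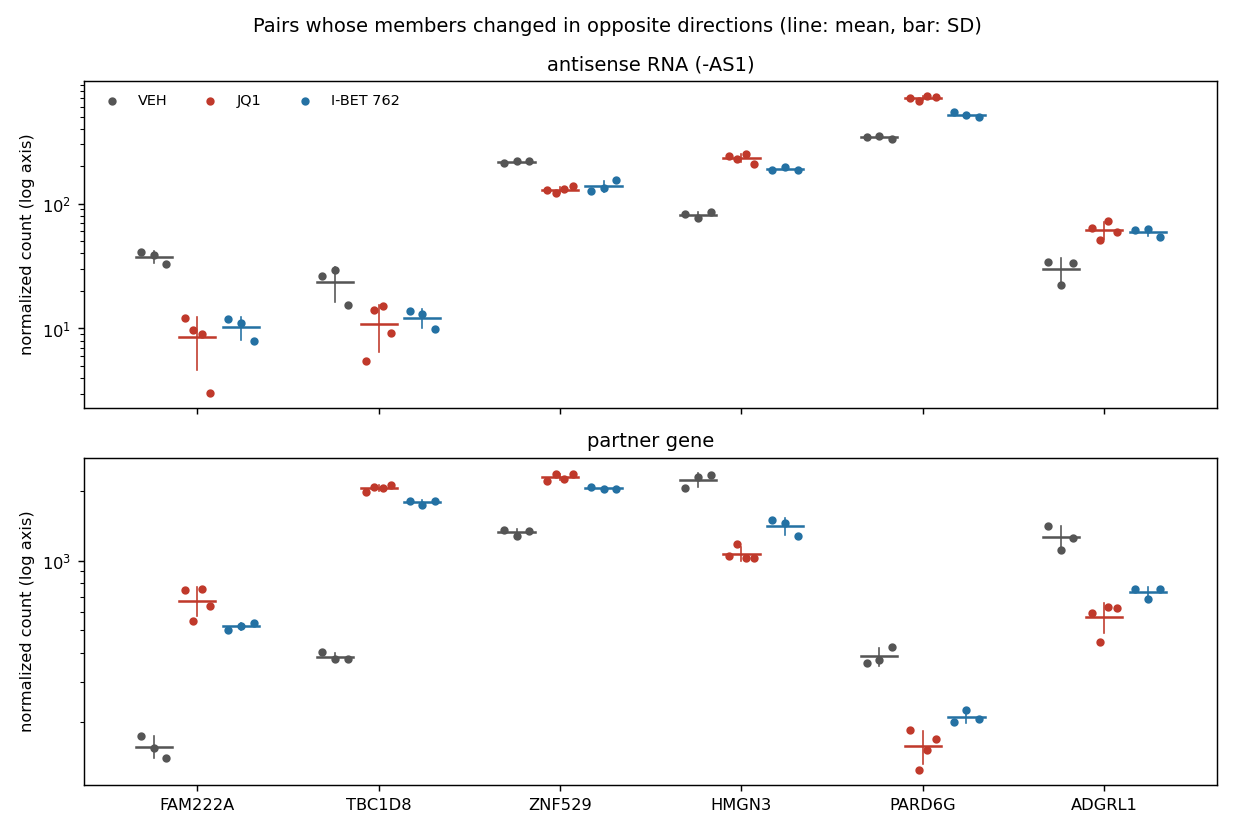
Normalised count on a log axis in each of the 10 libraries for 6 antisense RNAs (top) and their partners (bottom), with the mean and SD of each group. The antisense RNAs of FAM222A, TBC1D8 and ZNF529 lie lower and those of HMGN3, PARD6G and ADGRL1 higher with both inhibitors than in VEH, and each partner lies on the other side.

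The gene that names an antisense RNA was not always the one at its start. For 53 members another tested gene, not the stem gene, had its annotated start within 1000 bases on the other strand. Of these members 21 were DEGs with JQ1, and the neighbour was a DEG in the same direction for 8 and in the opposite direction for 2. With I-BET 762 the counts were 16, 6 and 1. For scale, DEGs made up 36.1% of the 14839 symbols under JQ1 and 26.9% under I-BET 762. No rate was taken for neighbours of members that were not DEGs. A link between antisense RNA and neighbour was therefore not tested. LYRM4-AS1 starts 289 bases from RPP40, a subunit gene of RNase P, which rose by 1.01 and 0.67 on the log2 scale, while LYRM4 itself moved by 0.39 and 0.25. PAXBP1-AS1 starts 54 bases from SYNJ1, a phosphatase of synaptic vesicle recycling, which rose by 0.94 and 0.79. THUMPD3-AS1 starts 964 bases from SETD5, for which the log2 fold changes were -0.43 and -0.23.

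JQ1 and I-BET 762 were compared at the same dose and time, in 1 direct contrast over all symbols. The direct difference was called in 25 of the 353 members, 3 higher and 22 lower with JQ1, or 0.85% and 6.23%, beside a background of 5.31% of all symbols called, 1.73% higher and 3.59% lower. Without the 8 shared rows it was 24, 3 higher and 21 lower. The count fell to 12 without I-BET 762 21 and to 15 without I-BET 762 23, and it was 15 with no filter on low values. Among all symbols with a mean under 100, the background was 2.73% and 7.11%. The antisense RNAs with such a mean, without the shared rows, had 1.26% higher and 7.11% lower. At a mean of at least 100 their shares were 0% and 3.77%, beside 1.38% and 2.38% of all symbols. The differences in share were not tested. SPRY4-AS1 was at 28.66 to 49.39 in VEH, 72.03 to 93.31 with JQ1 and 25.06 to 46.25 with I-BET 762, a direct log2 difference of 1.18 ± 0.23 (adjusted p = 0.00144), and SPRY4 differed by 1.0 in the same direction. PPP1R14B-AS1 and GEMIN7-AS1 were the other two higher with JQ1, with log2 differences of 0.63 and 0.64. ZFHX4-AS1, opposite the zinc finger homeobox gene ZFHX4, was at 37.9 to 54.24 in VEH, 4.40 to 7.62 with JQ1 and 13.03 to 17.71 with I-BET 762, lower with JQ1 by 1.24 on the log2 scale (adjusted p = 0.00454), and ZFHX4 was lower by 0.82. HHIP-AS1 was lower by 0.76 and HHIP by 0.96, and these were the 3 pairs in which both differed in the same direction. NR2F1-AS1 was lower by 0.64 ± 0.07 (adjusted p = 1.44e-05) and TRIM52-AS1 by 0.63 ± 0.12 (adjusted p = 0.00136), and neither partner passed the fold threshold.

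ZNF566-AS1 was at 30.99, 36.98 and 40.95 in VEH, 14.01 to 21.76 with JQ1 and 32.47 to 41.11 with I-BET 762, so JQ1 alone lay apart from VEH, by a direct difference of -0.95 ± 0.23 (adjusted p = 0.00596); 27.8% of its exon stretches have a copy elsewhere. A2M-AS1 was at 29.12 to 45.3, 11.97 to 16.23 and 22.06 to 41.35 (direct difference -1.01, adjusted p = 0.01, and 0.0694 without I-BET 762 23). CCDC28A-AS1 was at 61.02 to 84.26, 24.17 to 50.71 and 61.16 to 74.78; its direct difference of -0.73 had an adjusted p of 0.0276, which lay between 0.0511 and 0.11 without any 1 of JQ1 17, I-BET 762 21, I-BET 762 22 or I-BET 762 23. FOXN3-AS1 and TAF1A-AS1 were lower with JQ1 by 1.34 and 1.02 on the log2 scale. Without any 1 of the I-BET 762 libraries their adjusted p rose from 0.0232 to between 0.0503 and 0.0888, and from 0.039 to between 0.0937 and 0.107. C1RL-AS1 was lower by 0.79 (adjusted p = 0.0136, and 0.0683 and 0.0708 without I-BET 762 22 and I-BET 762 23). For the other members named here the inhibitors did not differ past both thresholds, except in PCBP1-AS1 (log2 difference -0.79, adjusted p = 9.27e-05), whose row carries the values of ASPRV1. The 95% interval of the log2 difference was narrow for OIP5-AS1 (-0.12 to 0.07) and THUMPD3-AS1 (-0.15 to 0.07), and wide for low ones such as DLGAP1-AS3 (-1.29 to 0.20) and FOXP4-AS1 (-1.62 to 0.20).

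**Figure D5:**
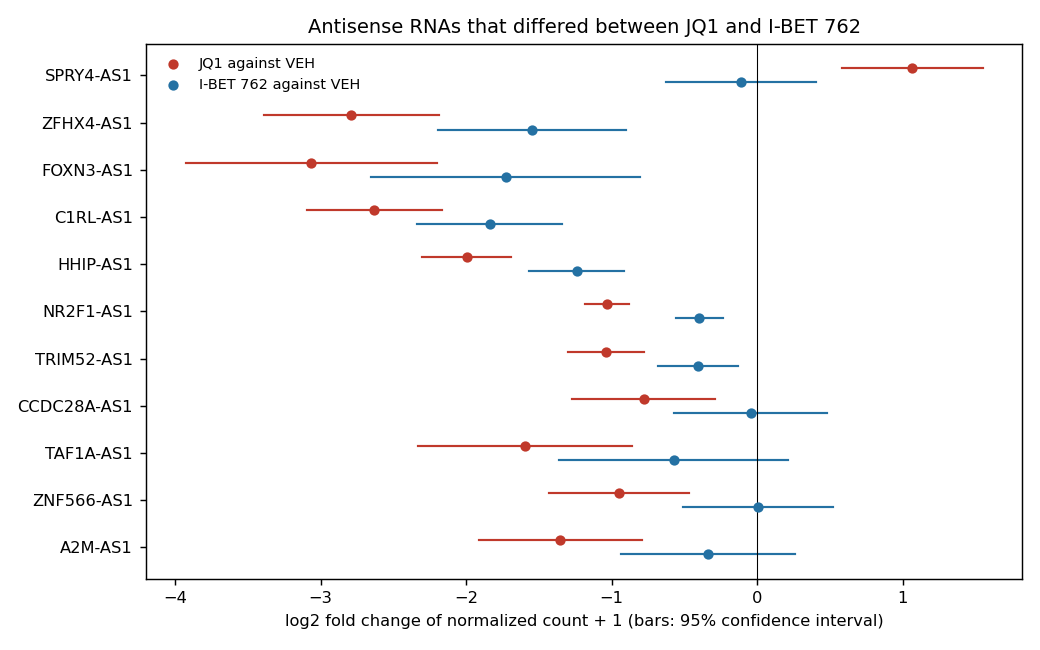
Log2 fold change against VEH with its 95% confidence interval for 11 antisense RNAs with a direct difference between JQ1 (red) and I-BET 762 (blue). In 10 the JQ1 point lies lower, as in ZFHX4-AS1 (-2.79 against -1.55), and in SPRY4-AS1 it lies higher (1.07 against -0.11).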

How the data were processed

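RNA of SK-UT-1 cells was sequenced in 12 libraries, of which 10 have a column of values. Per the labels and the study's methods, the authors checked reads with FastQC 0.73, trimmed them with Trimmomatic, mapped them to hg38 with HISAT2 2.2.1, counted them with featureCounts 2.0.3 on Gencode genes, normalised them with DESeq2 and left out outlier samples. The values the authors deposited are on a log2 scale, taken from their normalized counts after adding 1, and whole reads could be recovered from their steps for 99.74 to 99.77% of values (tolerance 0.02). No column of values was left unmapped (0).

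All 3 groups entered 1 limma 3.58.1 model with an intensity trend (R 4.3.3), over 14839 symbols with at least 10 normalized counts in 3 libraries, with Benjamini-Hochberg adjustment; a DEG has an adjusted p under 0.05 and a fold change over 1.5. "Fell by" and "rose by" give log2 fold changes, which understate changes of symbols near 0, so ratios of summed reads with exact 95% intervals are given there. Nothing says that the libraries came from separate cultures, so p-values measure the spread between these samples. Replicates of a group were compared by their reads, and none were alike within sampling noise. On simulated data, 88% of 92 genes changed 2-fold and 98.1% of 103 changed 4-fold were recovered for JQ1 (14945 genes), and 86% and 97.8% for I-BET 762 (14924 genes). The changed genes were drawn from symbols that passed the filter, whose median was 809.1 normalised counts against 48.0 among the members. These shares therefore do not give the recovery among the antisense RNAs.

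Positions and exons came from Gencode 44, not the version the authors used, and 344 of 353 members matched. Copies were exact matches of 75-base exon stretches; NUTM2A-AS1 (56.4%) and NUTM2B-AS1 (50.7%) had the most and are uncertain. Named were the 6 highest members, the 6 largest rises and falls with each inhibitor among DEGs that did not overlap VEH, the 6 largest differences between inhibitors, up to 6 opposite pairs, the well studied list, and all partners (45 antisense RNAs), and 16 more were added after their values were seen. The members and lists were chosen with earlier results of these data known. Alternatives changed the pseudocount, the filter, the scaling, the trend, the model, the thresholds and the libraries.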

Additional observations from a re-analysis of the deposited data

Results flagged for a closer look

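In 5 of 114 groups of 4 JQ1 libraries examined, 1 library stood apart from the other 3 by more than Dixon's 95% critical value; chance flags about 1 in 20 groups. FOXD2-AS1 was at 58.24 normalised counts in JQ1 17 and at 75.05 to 76.16 in the other libraries, while FOXD2 was at 108.8 in JQ1 17 and at 66.37 to 70.03 in the others. THAP9-AS1 was at 5026.6 and HMGN3 at 1184.9 in JQ1 18, against 4217.9 to 4343.0 and 1026.4 to 1052.7. HOXC-AS3 was at 2.001 in JQ1 19 and at 0 in the others.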

How the results depend on the processing

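No paired analysis was possible because the replicate numbers, 13 to 24, are all different between groups. DESeq2 and edgeR were not run. As the count-based alternative, limma-voom on the recovered reads called 150 members with JQ1, 120 with I-BET 762 and 21 in the direct comparison, against 149, 116 and 25. With a mean of at least 100 the counts were 38, 27 and 5, with a fold change over 2 they were 97, 69 and 5, and with all 10 libraries at 10 counts (added after seeing the data) 89 and 66 against VEH; these settings test or admit fewer members by construction. The direct comparison gave 15 with no filter on low values and 40 with no fold threshold. Leaving out 1 library gave 138 to 151 with JQ1, 101 to 120 with I-BET 762 and 12 to 29 in the direct comparison, the lowest being 12 without I-BET 762 21 and 15 without I-BET 762 23. Scaling to equal totals shifted the median of all genes by -0.175 with JQ1, -0.097 with I-BET 762 and -0.088 directly, and gave 33 rises and 137 falls with JQ1 (80.6% falls, against 73.8%) and 24 and 98 with I-BET 762 (80.3%, against 70.7%). Under it the log2 fold changes of RASGRP3-AS1 (-0.161) and TAF1A (-0.184) with JQ1 turned negative. Pairs that moved the same way, 49 with JQ1 and 32 with I-BET 762, numbered 16 and 7 where exons are not shared and 8 and 5 where both means reached 100, again fewer by construction. Of 342 named results, 75 changed side of the threshold under some alternative. Over all named results and alternatives, 6490 values kept direction and side, 113 lost and 82 gained the threshold, and 2 turned. Low counts limit these results: at 2.73 to 3.296 normalised counts for 3 reads, a member near 10 rests on few reads.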
